A study of Mus musculus with 12 samples.

Results

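The p53 target genes described here are a set of 10 mouse genes: Trp53, which encodes the p53 protein, and its known transcriptional targets Mdm2, Ccng1, Zmat3, Cdkn1a, Pmaip1, Bbc3, Bax, Perp and Trp53inp1. The set was selected on earlier results of these same arrays, in which several of the genes were lower in cells with TEL-AML1, so the comparisons of TEL-AML1 with the empty vector below describe the set and are no independent evidence on it. Each gene was represented by the probe set chosen by the highest mean log2 intensity over the 12 arrays. Of the 10 genes, 8 had a probe set listed for them alone, and each of these had 1, so no choice between probe sets arose. Their mean intensities, which are linear brightness values, ran from 108 for Bbc3 to 1832 for Ccng1. The expression of Bax and Trp53 was not analysed here. Mdm2 and Perp lie on chromosome 10, Zmat3 on 3, Trp53inp1 on 4, Bbc3 on 7, Ccng1 on 11, Cdkn1a on 17 and Pmaip1 on 18, per the GRCm38.p6 gene table. The 8 genes stood among 18820 named genes, of which 12338 were bright enough to be tested, and all 8 were above the brightness limit of 60.1 on every array.

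The cells were EML1, a mouse haematopoietic progenitor line derived by putting the retroviral vector LRARalpha403SN into bone marrow of male BDF1 mice, so every group carried that vector. They were infected with the lentiviral vector pWPI, either empty or carrying TEL-AML1, a fusion that joins ETV6 to RUNX1, both transcription factors, and occurs in childhood B-cell precursor leukaemia. Each was profiled untreated, at day 5 and at day 7 of IL7 and FLT3L, which gave 6 groups of 2 arrays: empty vector untreated, empty vector day 5, empty vector day 7, TEL-AML1 untreated, TEL-AML1 day 5 and TEL-AML1 day 7. The stated aim was a profile of expression in these cells once TEL-AML1 was present. The sample titles name only the cytokines, and the culture protocol adds OP9 stromal cells, another medium and another serum to IL7 (10 ng/ml) together with 80 ng/ml of FLT3L. Treatment, stroma and medium therefore cannot be told apart if the treated cells were grown that way. The labels do not state whether the replicates were separate cultures, nor whether either vector's cells were 1 clone or a mixed population, and the p-values rest only on how far these arrays spread, which can be a technical spread.

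The p53 protein is a transcription factor that accumulates when DNA is damaged, when oncogenes are active or when nutrients run short. It raises genes that halt the cell cycle, genes that start apoptosis and genes that turn p53 itself off again, of which Mdm2, the ubiquitin ligase that marks p53 for destruction, is the best known. In blood progenitors this network is known to limit self-renewal and to remove damaged cells, and its output is usually read from these targets because p53 is controlled mainly at the level of the protein.

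Array medians lay between 68.1 and 72.9, and the correlation across genes between replicates was 0.981 to 0.997. The defining progenitor markers Ptprc, Kit, Cd34 and Spi1 were bright on all 12 arrays. Of 25 tested stroma markers, 24 were higher in empty vector day 5 than in untreated cells. The summed intensity of the stroma list was 2750 and 2705 in the untreated empty vector arrays, 13232 and 10284 at day 5, and 3496 and 8190 at day 7. With TEL-AML1 it was 3212 and 3010 untreated, 10815 and 4942 at day 5, and 3207 and 5733 at day 7. Of the defining stroma markers, Col1a1, Col1a2 and Col3a1 were brightest on empty vector day 5 replicate 1, Lum lay at 36.7 to 43.7 on every array and Pdgfrb was at 776 to 1323 on every array. Of 7 tested mast cell markers 3 were higher with TEL-AML1 in untreated cells and 0 lower, and of 5 tested erythroid markers 1 was higher. In untreated cells the mast cell sums were 5198 and 5511 without TEL-AML1 and 6865 and 6924 with it. The erythroid sums there were 383 and 387 against 667 and 701, though the median log2 difference of the 5 erythroid markers was 0.11.

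**Figure D1:**
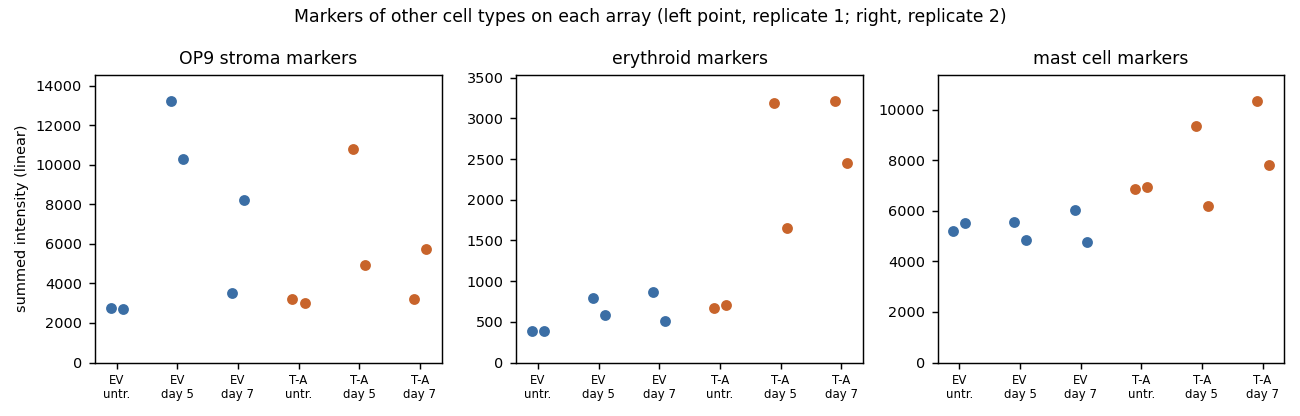
Summed linear intensity (vertical axis) of OP9 stroma, erythroid and mast cell markers on each of the 12 arrays, 1 point per array, blue for the empty vector and orange for TEL-AML1. Replicate 1 of day 5 holds the highest stroma sum in each vector, 13232 and 10815, and replicates of the treated groups lie far apart, as 3496 and 8190 at day 7 of the empty vector.

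Promoter sequence was available for 6 of the 10 genes, as RefSeq windows of GRCm38.p6 from 250 bases before to 50 bases after a transcription start, 9 windows in all. The windows were searched on both strands for the decamer that forms one arm of a p53 response element, and for TGTGGT and TGCGGT, the core letters that the RUNX1 part of TEL-AML1 recognises. The stretches below are shown because Mdm2 and Ccng1 were lower with TEL-AML1 and Cdkn1a, the classical p53 target, was not called, and all 3 hold the decamer. They are read 5' to 3' on the gene's strand, with matches to the decamer or to a RUNX hexamer in capitals.
Mdm2, chr10:117710859-117710978, minus strand: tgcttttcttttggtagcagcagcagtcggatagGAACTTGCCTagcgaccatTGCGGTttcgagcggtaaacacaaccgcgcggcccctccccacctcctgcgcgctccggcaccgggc
Ccng1, chr11:40755387-40755506, minus strand: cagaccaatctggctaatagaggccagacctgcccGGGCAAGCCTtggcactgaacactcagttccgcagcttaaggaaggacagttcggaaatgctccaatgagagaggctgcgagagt
Cdkn1a, chr17:29090859-29090978, plus strand: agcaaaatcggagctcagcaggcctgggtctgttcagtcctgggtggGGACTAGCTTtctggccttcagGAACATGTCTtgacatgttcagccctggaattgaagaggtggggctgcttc

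In Mdm2 the decamer GAACTTGCCT lay at positions -186 to -177 from the start and TGCGGT at -167 to -162. Ccng1 held GGGCAAGCCT at -185 to -176 and, outside the printed stretch, ACCACA, which is TGTGGT on the other strand, across the start itself. Cdkn1a held GGACTAGCTT and GAACATGTCT before the more distal of its 2 annotated starts and no match before the other. Windows of Bax and Trp53 held 1 decamer each, and the 3 windows of Bbc3 held none. The decamer was thus in 5 of 9 windows, against 8.36% of all 32851 promoter windows of the same length, and a RUNX hexamer was in 2 of 9, against 22.4% of all. These matches are letters in a window, and no binding was measured.

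Mdm2, whose product is the ubiquitin ligase that opposes p53, was lower with TEL-AML1 in each condition. Untreated cells with the empty vector read 1003 and 948 against 569 and 575 for TEL-AML1, a log2 difference of -0.75 ± 0.11 (standard error, adjusted p = 0.00203). At day 5 it was 898 and 836 against 523 and 517 (-0.72 ± 0.11, adjusted p = 0.00372). At day 7 it was 984 and 770 against 682 and 589 (-0.45 ± 0.11, adjusted p = 0.0294). All 6 arrays with the empty vector thus lay above all 6 with TEL-AML1, and the fold in untreated cells was 1.69. The day 7 call was lost without empty vector day 7 replicate 1 (-0.27, adjusted p = 0.143) and without TEL-AML1 day 7 replicate 2 (-0.34, adjusted p = 0.206). A group left with 1 array is assumed to vary like the others in such fits. The call was also lost with only the 2 groups in the fit, at an adjusted p of 0.204. Log2 differences here are of log2(intensity + 16), and adjusted p-values come from limma with Benjamini-Hochberg adjustment over the 12338 tested genes. In RNA of whole cultures, fewer cells with a transcript and less of it per cell cannot be told apart. By mean intensity the 3 empty vector groups ranked first, at 975 (untreated), 877 (day 7) and 867 (day 5), each overlapping the next. TEL-AML1 day 7 followed at 636, TEL-AML1 untreated at 572 and TEL-AML1 day 5 at 520, without overlap between neighbours, though the differences among these last 3 were not called.

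Zmat3, which encodes a zinc finger protein that binds RNA and acts in splicing, showed the largest drop among the 8 genes in each of the 3 conditions. Untreated arrays stood at 460 and 474 for the empty vector against 213 and 219. Day 5 arrays stood at 310 and 409 against 204 and 140, and day 7 arrays at 312 and 395 against 154 and 150. No array with TEL-AML1 reached the lowest empty vector array of any condition. The log2 difference was -1.06 ± 0.17 untreated (adjusted p = 0.00294), -1.0 ± 0.17 at day 5 (adjusted p = 0.00536) and -1.13 ± 0.17 at day 7 (adjusted p = 0.00203), about 2.08-fold, 2.01-fold and 2.19-fold lower. Without empty vector day 5 replicate 2 the day 5 difference was -0.81 (adjusted p = 0.0529), and with only the 2 groups in the fit its adjusted p was 0.070. A further probe set, listed for both Zmat3 and 4930429B21Rik, was left out because it names 2 genes. It ran from 67.3 to 87.4 over the empty vector arrays and from 52.8 to 64.2 over those with TEL-AML1. These values are dim, near the brightness limit of 60.1, with some TEL-AML1 arrays below it. In the order of mean levels, empty vector untreated came first at 467, clear of empty vector day 5 and day 7, whose arrays overlapped. TEL-AML1 untreated followed at 216, clear of TEL-AML1 day 5 and day 7, whose arrays overlapped as well.

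Ccng1, the gene of cyclin G1, a partner of a phosphatase that acts on Mdm2, was bright throughout. Its arrays read 2299 and 2487 in untreated cells with the empty vector against 1853 and 1946 with TEL-AML1, 1788 and 1942 against 1733 and 1312 at day 5, and 1872 and 1857 against 1519 and 1373 at day 7. Both TEL-AML1 arrays were below both empty vector arrays in each condition. In the order of means, empty vector untreated stood clear at 2393, and TEL-AML1 untreated came next at 1899, overlapping the treated empty vector groups. Treated TEL-AML1 groups were lowest, at 1523 and 1446, and overlapped each other. The log2 difference was -0.33 ± 0.12 untreated, -0.30 ± 0.12 at day 5 and -0.36 ± 0.12 at day 7, and none was called by itself (adjusted p = 0.142, 0.179 and 0.0805). Averaged over the 3 conditions the difference of -0.33 ± 0.07 was called (adjusted p = 0.00566). Without TEL-AML1 day 5 replicate 1, the brighter of its pair, the day 5 difference was -0.50 and was called (adjusted p = 0.0280).

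**Figure D2:**
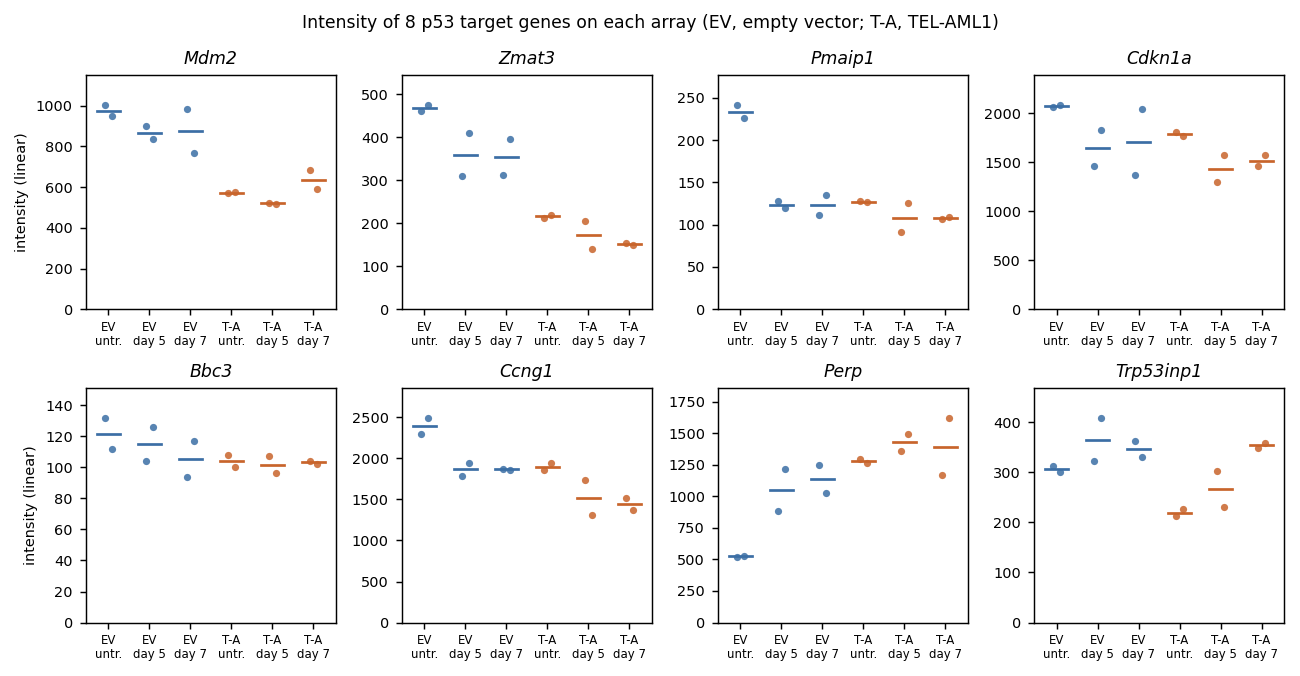
Linear intensity (vertical axes, from 0) of 8 p53 target genes on each of the 12 arrays, as points, with group means as bars, blue for the empty vector (EV) and orange for TEL-AML1 (T-A). Mdm2 and Zmat3 arrays with TEL-AML1 all sit below those with the empty vector, while the low Perp values of 522 and 527 and the high Pmaip1 values of 241 and 226 belong to the untreated empty vector arrays.

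Among the genes of the death pathway, Pmaip1 and Perp separated the vectors in untreated cells, in opposite directions. Pmaip1 encodes Noxa, a BH3-only protein that blocks Mcl1, and read 241 and 226 for the empty vector against 128 and 126 (-0.80 ± 0.12, adjusted p = 0.00245). Perp encodes a tetraspan membrane protein that acts in p53-dependent death and in cell adhesion, and read 522 and 527 against 1296 and 1266 (1.26 ± 0.17, adjusted p = 0.00108), 2.40-fold higher. Both calls held without each single array. At day 5 Pmaip1 read 127 and 119 against 90.8 and 125 (adjusted p = 0.454), with overlapping arrays, and at day 7 it read 112 and 135 against 107 and 109 (adjusted p = 0.475). Perp read 887 and 1218 against 1361 and 1493 at day 5 (0.45 ± 0.17, adjusted p = 0.165), and 1250 and 1025 against 1168 and 1617 at day 7 (0.28 ± 0.17, adjusted p = 0.369). The untreated empty vector arrays thus stood apart for both genes, highest for Pmaip1 with the next group at a mean of 127, and lowest for Perp with the next group at 1053. The 5 other groups of Pmaip1 overlapped each with its neighbour in the order of means. For Perp the 3 TEL-AML1 groups came first with means of 1427, 1393 and 1281, overlapping one another in that order. The median difference of the mast cell markers between the vectors was 1.05 untreated, 1.31 at day 5 and 1.87 at day 7. The Perp difference was 1.26, 0.45 and 0.28, and the part of mast cells in it was not tested.

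Bbc3 encodes Puma, a BH3-only protein that binds the prosurvival Bcl2 family, and was the dimmest gene of the set. Its arrays read 132 and 112 untreated, 104 and 126 at day 5 and 93.6 and 117 at day 7 with the empty vector. With TEL-AML1 they read 108 and 100, 107 and 96.1, and 104 and 103. Neighbouring groups overlapped along the whole order, and the mean difference of -0.12 ± 0.07 between the vectors was not called (adjusted p = 0.247, 95% interval -0.27 to 0.03). Trp53inp1, a nuclear and autophagy protein that promotes p53 phosphorylation, read 312 and 301 untreated with the empty vector against 213 and 227 (-0.45 ± 0.13, adjusted p = 0.0581). It read 323 and 407 against 302 and 231 at day 5 (-0.44 ± 0.13, adjusted p = 0.0744), both TEL-AML1 arrays again being lower. At day 7 it read 363 and 331 against 348 and 359, and the groups overlapped (0.03 ± 0.13, adjusted p = 0.929). Over the 3 conditions the difference was -0.29 ± 0.07 (adjusted p = 0.0186). Its adjusted p became 0.0551 without empty vector untreated replicate 1 and 0.0571 without TEL-AML1 untreated replicate 1. The day 5 difference was called without empty vector day 5 replicate 1 (-0.60, adjusted p = 0.0380) and without TEL-AML1 day 5 replicate 1 (-0.62, adjusted p = 0.0294). TEL-AML1 untreated was the lowest group, at a mean of 220 and clear of the next, and the highest 3 groups, at 365, 354 and 347, overlapped.

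Cdkn1a, which encodes the cyclin-dependent kinase inhibitor p21 and is the standard reporter of p53 activity, was not called between the vectors in any condition. Its arrays read 2062 and 2085 against 1811 and 1769 in untreated cells, 1466 and 1832 against 1300 and 1573 at day 5, and 1367 and 2042 against 1464 and 1572 at day 7. The untreated groups did not overlap, and the day 5 and day 7 groups did. Empty vector untreated, at a mean of 2074, stood clear of the other groups, which overlapped each with the next from 1790 down to 1436. The log2 difference was -0.21 ± 0.17 untreated (adjusted p = 0.625), -0.19 ± 0.17 at day 5 (adjusted p = 0.574) and -0.14 ± 0.17 at day 7 (adjusted p = 0.682). Averaged over conditions it was -0.18, with a 95% interval from -0.40 to 0.04 (adjusted p = 0.233). That interval does not reach the mean drops of Mdm2 (-0.64) or Zmat3 (-1.06), though no test of 1 gene's difference against another's was made. The standard error pools the spread of all 6 groups and is not that of the untreated arrays alone. Intensity standard deviations were 16.2 (empty vector) and 29.6 (TEL-AML1) untreated, 259 and 193 at day 5, and 477 and 76.7 at day 7. The replicates of empty vector day 7 lay far apart. Without its replicate 1 the mean difference was -0.28 and was called (adjusted p = 0.0245), and with only the 2 untreated groups in the fit the untreated difference was called as well (adjusted p = 0.0361).

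Counted over the set, 3 of the 8 genes were lower with TEL-AML1 in untreated cells (Mdm2, Zmat3 and Pmaip1) and 1 was higher (Perp), where 6.16% of all tested genes were lower and 2.74% higher. At day 5, 2 were lower (Mdm2 and Zmat3) and 0 higher, against 4.28% and 3.04% of all genes. At day 7 the same pair was lower and 0 higher, against 6.00% and 5.28%. In the mean over conditions, 5 were lower and 1 higher, against 12.7% and 9.85%. The median difference of the 8 genes was -0.39 untreated, -0.25 at day 5 and -0.15 at day 7, beside -0.01, -0.00 and -0.03 over all tested genes. Since the set was selected on this contrast, these counts are a description. With arrays of one number blocked within each condition (a replicate block), the same members were called in all 4 comparisons, while the number of all genes called rose from 903 to 1838 at day 5 and from 1392 to 2215 at day 7. With only the compared groups in the fit, 7 members were called untreated, 1 at day 5 and 1 at day 7, while the calls over all genes were 2374, 327 and 371.

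**Figure D3:**
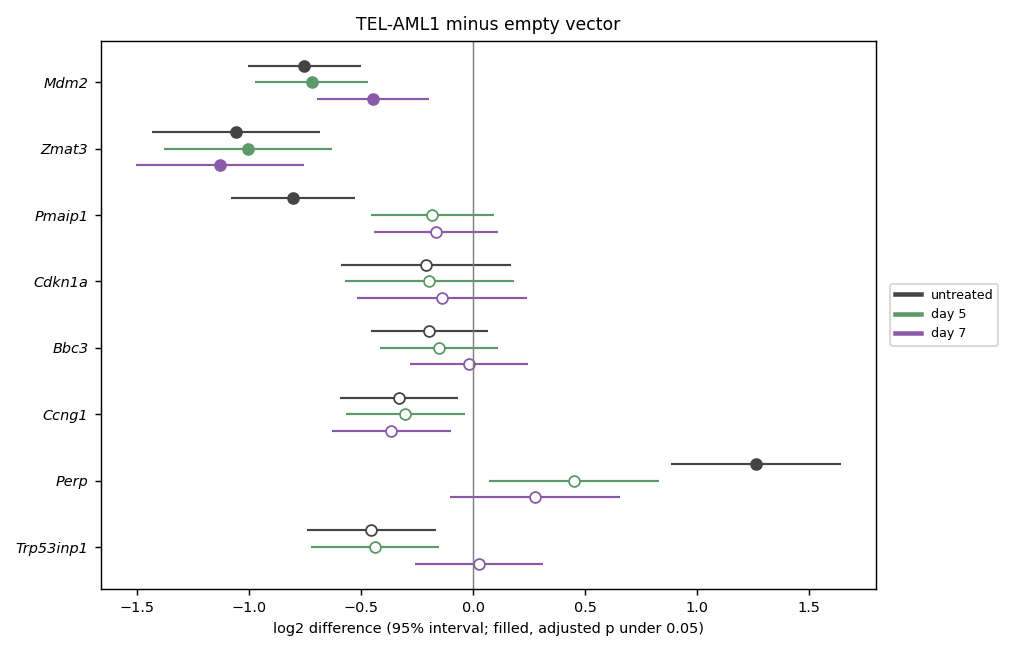
Log2 difference of TEL-AML1 minus empty vector (horizontal axis) for 8 p53 target genes untreated, at day 5 and at day 7, with 95% intervals as bars and filled points where the adjusted p was under 0.05. Zmat3 lies near -1 in all 3 conditions, Perp lies at 1.26 untreated and at 0.28 at day 7, and the Cdkn1a intervals all cross 0.

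With the empty vector, Pmaip1 was lower and Perp higher in treated than in untreated cells at both times. Pmaip1 went from 241 and 226 untreated to 127 and 119 at day 5 (-0.84 ± 0.12, adjusted p = 0.00339) and to 112 and 135 at day 7 (-0.85 ± 0.12, adjusted p = 0.00311). Perp went from 522 and 527 to 887 and 1218 at day 5 (0.97 ± 0.17, adjusted p = 0.00769) and to 1250 and 1025 at day 7 (1.09 ± 0.17, adjusted p = 0.00419). Treated and untreated arrays did not overlap for either gene. The day 5 call of Perp was lost without either untreated empty vector array (adjusted p = 0.0553 without replicate 1 and 0.0702 without replicate 2). So 1 of 8 genes was lower and 1 higher at each time, against 7.16% lower and 8.45% higher of all genes at day 5, and 9.19% and 6.29% at day 7. Of all calls, 54.2% were higher at day 5 and 40.6% at day 7, and 42.2% and 25.1% when each array was centred on its median.

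The stroma sums given above rose with this treatment. With the mean of the stroma markers as a covariate, the day 5 difference was -0.75 for Pmaip1 (adjusted p = 0.097) and 1.14 for Perp (adjusted p = 0.0774). In that fit 0 of the 8 genes were called, and calls over all 12338 genes fell from 1926 to 375. At day 7 the empty vector arrays differed in their stroma sum, 3496 against 8190, while Pmaip1 read 112 and 135 and Perp 1250 and 1025 on the same arrays. Cdkn1a read 1367 and 2042 on that pair. Its day 7 difference was -0.31 ± 0.17 (adjusted p = 0.249), and without replicate 2 it was -0.60 (adjusted p = 0.0174), a fit in which the day 7 group is 1 array whose spread is taken from the other groups. The part of stroma RNA in these differences was not tested beyond these values.

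The other members of the set were not called with the empty vector. Ccng1 was 0.36 lower on the log2 scale at both times (adjusted p = 0.0693 at day 5 and 0.0696 at day 7), Zmat3 differed by -0.38 and -0.40, and Mdm2 by -0.17 and -0.16. Every treated array of Ccng1, Zmat3 and Cdkn1a lay below both untreated arrays. Trp53inp1 differed by 0.23 and 0.17 and Bbc3 by -0.07 and -0.18. With the stroma covariate Zmat3 was called at day 7 (-0.62, adjusted p = 0.0391), and Ccng1 was called at day 7 with each array centred on its median (-0.42, adjusted p = 0.0472). The median over the 8 genes was -0.25 at both times, beside -0.01 and 0.01 over all genes.

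With TEL-AML1, no member was called at day 5 by limma, where 0.438% of all genes were called lower and 1.17% higher. At an unadjusted p under 0.05 were 1 of the 8 members and 1828 of all 12338 genes. At day 7 only Trp53inp1 was called, with arrays of 213 and 227 untreated and 348 and 359 at day 7 (0.65 ± 0.13, adjusted p = 0.0157). The groups did not overlap, and day 5 lay between them at 302 and 231. The call was lost without any single one of the 4 arrays compared, at adjusted p-values of 0.123 and 0.0925 without TEL-AML1 untreated replicate 1 or 2 and 0.0766 and 0.0721 without TEL-AML1 day 7 replicate 1 or 2. So 1 of 8 was higher and 0 lower, against 4.77% higher and 3.08% lower of all genes. Of all calls 60.7% were higher, and 50.1% after quantile normalization. With only the groups compared in the fit, Zmat3 (-0.47, adjusted p = 0.00913) and Ccng1 (-0.39, adjusted p = 0.0249) were called lower at day 7 as well, and with the stroma covariate Zmat3 was (-0.59, adjusted p = 0.0393). Perp differed by 0.15 at day 5 and 0.10 at day 7, and Pmaip1 by -0.22 and -0.21, with adjusted p-values of 0.388 to 0.822.

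**Figure D4:**
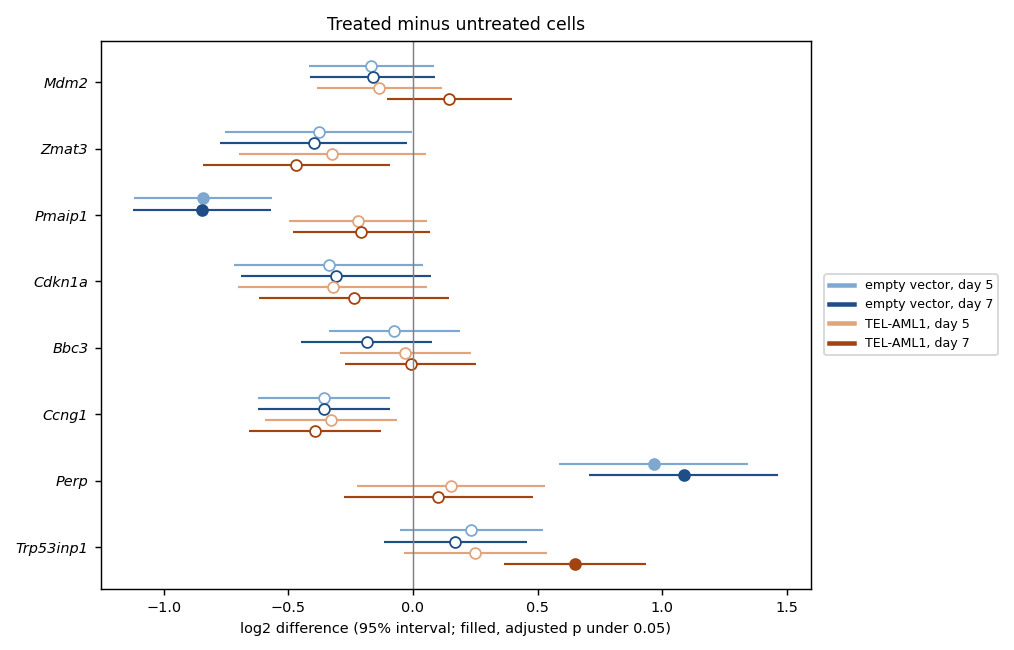
Log2 difference of treated minus untreated cells (horizontal axis) for 8 p53 target genes, by vector and day, with 95% intervals as bars and filled points where the adjusted p was under 0.05. With the empty vector Pmaip1 lies near -0.85 and Perp near 1, while with TEL-AML1 the filled point is Trp53inp1 at day 7, at 0.65.

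Whether the vectors differed in their response to treatment was tested directly. For Perp the response with TEL-AML1 minus that with the empty vector was -0.81 ± 0.24 at day 5 (adjusted p = 0.565) and -0.99 ± 0.24 at day 7 (adjusted p = 0.289). For Pmaip1 it was 0.62 ± 0.18 (adjusted p = 0.565) and 0.64 ± 0.18 (adjusted p = 0.335). No member was called by limma at either day. At an unadjusted p under 0.05 were 2 of the 8 at day 5 and 3 at day 7, beside 949 and 1117 of all 12338 genes. These fits leave out a possible pairing of arrays within a condition. No fit with a block within each condition was made for the response. The difference in response is not established by these fits. Over all genes 0.0324% were called at day 5 and 0.0811% at day 7, which are 4 and 10 genes. Of the 10, 7 were higher, and 7 of 8 when arrays were centred. Between day 5 and day 7, 0% of genes were called in either vector, and limma called 0 members, with 0 and 2 of them at an unadjusted p under 0.05. There, 796 and 987 genes had an unadjusted p under 0.05. The largest member differences were those of Trp53inp1 (0.40 ± 0.13, adjusted p = 0.600) and Mdm2 (0.28 ± 0.11, adjusted p = 0.604), both with TEL-AML1.

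The genes whose log2 intensity followed Mdm2 most closely over the 12 arrays were Sbno1 on chromosome 5 (Pearson r = 0.975), Snx30 on chromosome 4 (0.973), Pan3 on chromosome 5 (0.970), Rc3h2 on chromosome 2 (0.967) and Ildr2 on chromosome 1 (0.965). Those closest to Cdkn1a were Klf6 on chromosome 13 (0.933), Cobl on chromosome 11 (0.930), Mapk6 on chromosome 9 (0.927), Il6ra on chromosome 3 (0.926) and Edem1 on chromosome 6 (0.922). The 12 points share their groups of 2 arrays, so these values describe likeness of pattern only. No gene was among the 5 of both.

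Beyond the set, a list of 40 further p53 targets was examined, of which 33 were tested. With TEL-AML1 in untreated cells 6 were lower and 1 higher, against 6.16% and 2.74% of all genes, and the list median was -0.10 beside -0.01 for all genes. Ei24, whose product sits in the endoplasmic reticulum and acts in autophagy, read 1374 and 1333 against 1080 and 1013 (-0.37 ± 0.07, adjusted p = 0.00781). Sesn2, a stress-induced brake on mTORC1, read 469 and 420 against 324 and 316 (-0.45 ± 0.10, adjusted p = 0.0195). The thiamine transporter gene Slc19a2 (-0.67 ± 0.15, adjusted p = 0.0171), the microtubule-binding Psrc1 (-0.88 ± 0.21, adjusted p = 0.0234) and the lipid hydrolase gene Abhd4 (-0.55 ± 0.13, adjusted p = 0.0279) were lower too. Pml, the scaffold of nuclear bodies, was the 1 higher gene (0.36 ± 0.09, adjusted p = 0.0387). Nearly all of these 7 calls were lost without any single untreated array. Those fits leave 1 array in a group, and calls over all genes fell in them as well. The list count rose to 13 with only the untreated groups in the fit, where calls over all genes rose from 1098 to 2374.

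At day 5, where 3.04% of all genes were higher and 4.28% lower, the vectors differed in 1 of the 33, Gadd45a, a growth arrest and DNA repair gene, which was higher at 145 and 120 against 87.4 and 88.9 (0.51 ± 0.08, adjusted p = 0.00462). At day 7 it read 148 and 148 against 77.6 and 75.9 (0.82 ± 0.08, adjusted p = 0.000218). Sesn2 (-0.56 ± 0.10, adjusted p = 0.00586), Ei24 (-0.36 ± 0.07, adjusted p = 0.00862) and Slc19a2 (-0.71 ± 0.15, adjusted p = 0.0123) were lower at day 7, so that 3 were lower and 1 higher against 6.00% and 5.28% of all genes. With the replicate block within each condition the counts were 6 at day 5 and 7 at day 7, and leaving out 1 array gave 1 to 4 and 1 to 6. In the mean over conditions, 8 were lower and 2 higher, against 12.7% and 9.85% of all genes, and 9 to 14 were called without single arrays.

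Between treated and untreated empty vector cells 14 of the 33 differed at day 5, 8 higher and 6 lower. Of all genes 8.45% were higher and 7.16% lower there. Pml rose from 291 and 267 to 747 and 751 (1.38 ± 0.09, adjusted p = 1.92e-05), and Sesn2 fell from 469 and 420 to 276 and 305 (-0.59 ± 0.10, adjusted p = 0.00741). Ephx1, an epoxide hydrolase, read 52.1 and 53.4 untreated and 262 and 141 at day 5 (1.60 ± 0.33, adjusted p = 0.0133), and the kinase gene Plk2 (0.52 ± 0.09) and the transcription factor gene Foxo3 (0.43 ± 0.10) were higher too. The mTORC1 inhibitor gene Ddit4 was lower (-0.46 ± 0.09, adjusted p = 0.0112). At day 7 Ephx1 read 74.4 and 136 on the arrays with stroma sums of 3496 and 8190, and the part of stroma RNA was not tested. The count of 14 became 3 with the stroma covariate, where calls over all genes fell from 1926 to 375. It also fell without any single array compared, most without either untreated array. Those fits leave 1 array in a group, and calls over all genes fell in them as well.

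At day 7 of the empty vector 3 of the 33 were higher and 5 lower, against 6.29% and 9.19% of all genes, among them Pml (1.39 ± 0.09, adjusted p = 2.04e-05) and Foxo3 (0.44 ± 0.10) in the first direction. Ier5 (-0.44 ± 0.08), Sesn2 (-0.52 ± 0.10), the small GTPase gene Rap2b (-0.60 ± 0.12) and Tigar, a brake on glycolysis (-0.64 ± 0.13), went in the second. With TEL-AML1, Pml (1.09 ± 0.09, adjusted p = 0.000124) and Gadd45a (0.58 ± 0.08, adjusted p = 0.00482) were higher at day 5, the 2 calls of the list, where 1.17% of all genes were higher. At day 7 of TEL-AML1 4 were higher and 3 lower, against 4.77% and 3.08% of all genes, with Pml at 1.28 ± 0.09, Gadd45a at 0.73 ± 0.08, Foxo3 at 0.49 ± 0.10, Sesn2 at -0.63 ± 0.10, Tigar at -0.56 ± 0.13 and the spindle gene Ckap2 at -0.62 ± 0.15. Pml and Sesn2 thus kept their direction in both vectors and at both times, though Sesn2 was not called at day 5 of TEL-AML1 (-0.41 ± 0.10, adjusted p = 0.0988). With the stroma covariate the counts in these 3 comparisons were 13, 1 and 11, where calls over all genes were 2658, 89 and 1431. The list counts also changed without single arrays, in fits that leave 1 array in a group.

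Of 24 regulators and cofactors of p53, 22 were tested, and limma called 0 between the vectors in untreated cells or at day 7. At an unadjusted p under 0.05 were 5 and 2 of the 22, beside 2355 and 3026 of all 12338 genes. At day 5 Trp53bp2, whose product ASPP2 steers p53 towards death genes, was lower with TEL-AML1 at 255 and 273 against 326 and 332 (-0.30 ± 0.07, adjusted p = 0.0229), 1 of 22 lower where 4.28% of all genes were. That count was 0 without either empty vector day 5 array, without TEL-AML1 day 5 replicate 1 and with only the 2 groups in the fit, and 2 with the replicate block within each condition. The day 7 count of 0 was 3 without empty vector day 7 replicate 1 and 1 without replicate 2. Mdm4, the partner of Mdm2 that masks p53, read 457 to 704 over all arrays and was not called in any of the 12 comparisons. Cdkn2a, the locus of the Mdm2 inhibitor Arf, lay at 46.0 to 52.9, under the brightness limit on every array, and was not tested. In the mean over conditions Trp53bp2 (-0.20 ± 0.04, adjusted p = 0.00423) and the acetyltransferase gene Crebbp (-0.18 ± 0.05, adjusted p = 0.0244) were lower and Rpl5, a ribosomal protein that binds Mdm2, was higher (0.14 ± 0.04, adjusted p = 0.0297), 2 and 1 of 22 against 12.7% and 9.85% of all genes. That count of 3 was 5 with the replicate block within each condition and 1 to 5 without single arrays.

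In treated against untreated empty vector cells 2 of the 22 were higher and 2 lower at each time. That was near the shares of all genes (8.45% and 7.16% at day 5, 6.29% and 9.19% at day 7). Ppp1r13b, which encodes ASPP1, was higher at day 5 (0.52 ± 0.14, adjusted p = 0.0297) and day 7 (0.57 ± 0.14, adjusted p = 0.0215). The ubiquitin ligase gene Cop1 and the checkpoint kinase gene Chek1 were lower at both, with Cop1 at -0.27 ± 0.08 and -0.36 ± 0.08. The kinase gene Hipk2 was higher at day 5 (1.27 ± 0.23). It read 82.6 and 163 at day 7, on the arrays with stroma sums of 3496 and 8190, and the part of stroma RNA was not tested. With TEL-AML1 at day 7, Usp7, which removes ubiquitin from Mdm2 and p53 (-0.38 ± 0.07, adjusted p = 0.0095), and the repressor gene Bcl6 (-0.57 ± 0.12, adjusted p = 0.0181) were lower and Ppp1r13b was higher (0.56 ± 0.14), 2 and 1 of 22 against 3.08% and 4.77% of all genes. Without single arrays these counts of 4, 4 and 3 ran from 0 to 4, 0 to 9 and 0 to 2.

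Among 15 tested relatives of the set's genes, Ccng2, the relative of Ccng1, was higher with TEL-AML1 in untreated cells at 385 and 448 against 223 and 278 (0.70 ± 0.12, adjusted p = 0.00551). Cdkn1b, which encodes p27, the relative of p21, was higher as well (0.38 ± 0.08, adjusted p = 0.0152). Trp53inp2, the relative of Trp53inp1, was lower at 125 and 131 against 194 and 202 (-0.57 ± 0.10, adjusted p = 0.00619). These are 2 of 15 higher and 1 lower, against 2.74% and 6.16% of all genes. At day 5 Trp53inp2 (-0.55 ± 0.10, adjusted p = 0.00896) was the 1 call, where 4.28% of all genes were lower, and at day 7, where 5.28% were higher, Ccng2 (0.61 ± 0.12, adjusted p = 0.0108) and Zmat2 (0.50 ± 0.13, adjusted p = 0.0335), a splicing factor gene, were higher. With treatment, the BH3-only gene Bcl2l11 was higher at day 7 of TEL-AML1 (0.53 ± 0.14, adjusted p = 0.0472), a call lost without any single array compared, after quantile normalization, with no filter, with a pseudocount of 1 and with the replicate block. Zmat2 and Bid were lower at day 7 of the empty vector, 2 of 15 against 9.19% of all genes. The counts of 3, 1 and 2 between the vectors were 1 to 2, 0 to 2 and 0 to 1 without single arrays.

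The p21 protein is known to lower a group of cell cycle genes through the DREAM complex, and 18 of 22 such genes were tested. In untreated cells limma called 0 of 18 between the vectors, with 0 at an unadjusted p under 0.05, beside 2355 of all 12338 genes. At day 7, 7 were lower with TEL-AML1 and 0 higher, against 6.00% and 5.28% of all genes, with a list median of -0.33 beside -0.03 for all genes. Ect2, a cytokinesis factor, read 966 and 935 for the empty vector against 591 and 655 (-0.60 ± 0.08, adjusted p = 0.000746), and Ccna2, cyclin A2, read 1565 and 1598 for the empty vector against 1173 and 1139 (-0.45 ± 0.07, adjusted p = 0.00187). Kif23, a kinesin of the midbody, was lower too (-0.40 ± 0.09, adjusted p = 0.0196). The count of 7 was 3 to 5 without single arrays, 12 with the replicate block within each condition and 1 with only the 2 groups in the fit. The Cdkn1a difference in the same comparison was -0.14 ± 0.17. Erythroid marker sums on these arrays were 869 and 506 for the empty vector against 3218 and 2449, and their part in the cell cycle difference was not tested.

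Within TEL-AML1 cells, 17 of the 18 were lower at day 7 than untreated and 0 were higher, against 3.08% and 4.77% of all genes, with a median of -0.58 beside -0.00 for all genes. Ect2 (-0.59 ± 0.08, adjusted p = 0.00154), the checkpoint kinase gene Bub1 (-0.68 ± 0.10, adjusted p = 0.00355) and Ccna2 (-0.43 ± 0.07, adjusted p = 0.00465) had the smallest p. Most of the 17 calls were lost without either untreated TEL-AML1 array or without day 7 replicate 1, and some without day 7 replicate 2. Those fits leave 1 array in a group, and calls over all genes fell in them as well. With the stroma covariate the count was 17, where calls over all genes rose from 968 to 1431. At day 5 of TEL-AML1, 18 of 18 lay below 0 against untreated cells (median -0.26). With the empty vector, 17 did at day 5 (median -0.27) and 16 at day 7 (median -0.27). At day 5, 1 was called lower in each vector, against 0.438% of all genes with TEL-AML1 and 7.16% with the empty vector. With the empty vector 3 of the 18 were lower at day 7, Bub1 (-0.46 ± 0.10, adjusted p = 0.0152), Bub1b (-0.54 ± 0.13, adjusted p = 0.0236) and the mitotic kinase gene Aurka (-0.57 ± 0.16, adjusted p = 0.0385), where 9.19% of all genes were lower. That count was 12 with the stroma covariate, where calls over all genes rose from 1910 to 2658. It was 0 with only the 2 groups in the fit, where calls over all genes fell to 289. The count rose without empty vector day 7 replicate 2, and the calls were lost without any other single array. Those fits leave 1 array in a group. No gene of the list was called in the day 7 difference between the responses by limma. At an unadjusted p under 0.05 were 6 of the 18, beside 1117 of all 12338 genes. The smallest adjusted p was that of Ccna2 (-0.46 ± 0.09, adjusted p = 0.165). A stronger fall with TEL-AML1 is thus not shown by this fit, which leaves out a possible pairing within a condition. The Cdkn1a difference at day 7 of TEL-AML1 was -0.24 ± 0.17 (adjusted p = 0.495). Erythroid marker sums of the TEL-AML1 arrays were 667 and 701 untreated and 3218 and 2449 at day 7, and their part in the fall was not tested.

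**Figure D5:**
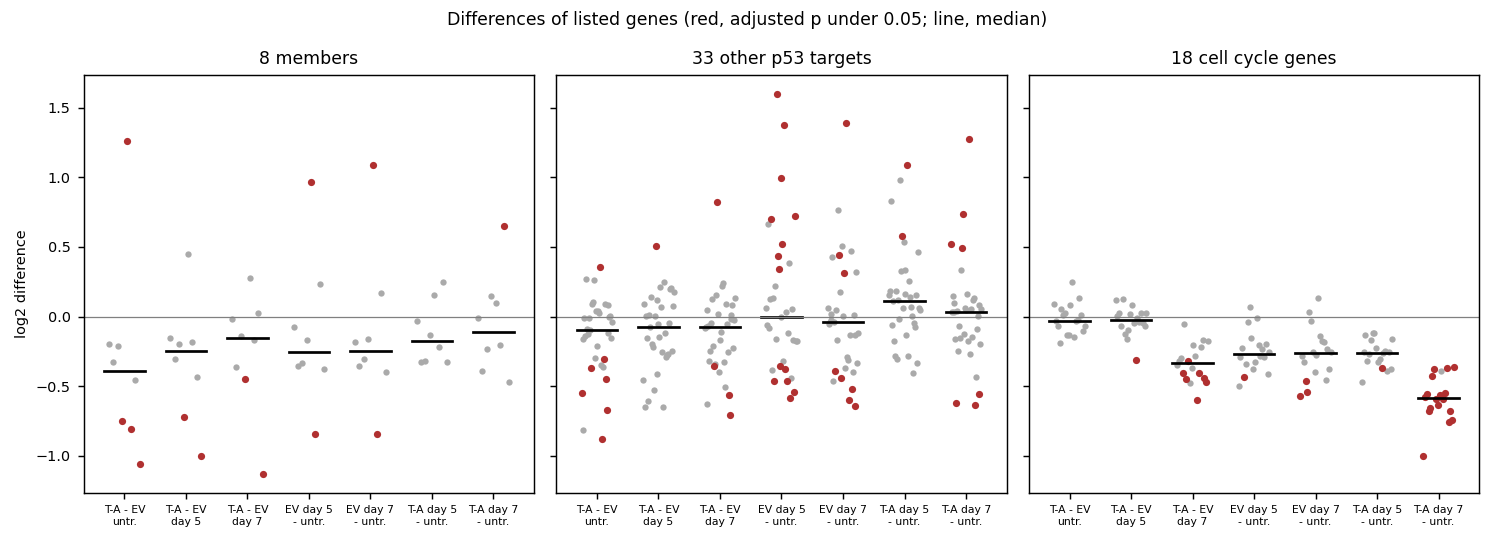
Log2 differences (vertical axis) of the 8 members, 33 other p53 targets and 18 cell cycle genes in 7 comparisons, 1 point per gene, red where the adjusted p was under 0.05, with the list median as a bar (T-A, TEL-AML1; EV, empty vector; untr., untreated). Against untreated cells, most cell cycle genes sit below 0 in both vectors and at both times, with 17 red points at day 7 of TEL-AML1. The other p53 targets scatter on both sides of 0.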

How the data were processed

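RNA of 12 samples was measured on Affymetrix arrays, and the deposited series table holds 1 linear intensity value per probe set and array, made by the authors. Their background correction, probe summary and normalization are not given in the sources used here. Brightness and 2 arrays a group limit precision. Of 35556 probe sets, the platform annotation listed 21218 with 1 gene, 1881 with several and 12457 not at all. Only the first kind were named, and 21185 matched the GRCm38.p6 gene table. It listed none for Bax and Trp53.

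Genes with a mean intensity at or above the 40th percentile of probe sets (60.1) were tested as log2(intensity + 16), which understates changes of dim genes, with 1 model of 6 group means in limma 3.58.1 (R 4.3.3), the residual degrees of freedom being 6 and the prior ones 4.22. Benjamini-Hochberg adjustment ran over the tested genes of each of 12 contrasts, with a threshold of 0.05. The fit was tested on simulated data. Its median standard error was 0.0991. Promoters came from RefSeq windows, and the sequence of Pmaip1 is not reported here.

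The members and gene lists were chosen with earlier results of these data known. Named were all members, and per comparison the 6 other targets, 4 regulators (with Mdm4 and Cdkn2a), 3 relatives and 3 cell cycle genes of smallest adjusted p, and the 5 genes most like Mdm2 and Cdkn1a. From these a part was given.

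Replicate numbers in the titles were checked for pairing. Deviations of same-numbered arrays of the 2 vectors correlated at 0.43 (untreated), 0.54 (day 5) and 0.38 (day 7), and between conditions at -0.24 to 0.16. The numbers may thus pair arrays within a condition, which the titles do not state. At day 5 and at day 7 the stroma sums of the replicates ran in the same order in both vectors. The part of stroma RNA in these correlations was not tested. Alternatives were quantile normalization, median centring, no filter or the 60th percentile, averaging all probe sets per gene, a pseudocount of 1 or 64, trended and robust variance, only the groups compared, the replicate block, a stroma covariate and leaving out each array. The list counts under these alternatives were added after the values were seen.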

Additional observations from a re-analysis of the deposited data

How the results depend on the processing

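Over 1592 values of the 8 members under alternative settings, 0 reversed, 15 lost and 17 gained a call. Of the rest, 1483 kept their direction and side of the threshold, and 77 changed sign with no call on either side. The filters, the variance setting, only the groups compared and the replicate blocks cannot change a member's log2 difference. Averaging probe sets cannot either, as each member had 1. Such values kept their direction by construction, so the tally of kept directions is no measure of robustness. With only the groups compared, the count of members called between the vectors went from 4 to 7 untreated, from 2 to 1 at day 5 and from 2 to 1 at day 7, and at day 7 of TEL-AML1 from 1 to 3. With the stroma covariate it went from 2 to 0 at day 5 of the empty vector, where calls over all genes went from 1926 to 375. At day 7 of TEL-AML1 it went from 1 to 2, where calls over all genes went from 968 to 1431. Without single arrays the counts ran from 1 to 4 between the vectors at day 5 and from 1 to 2 at day 7. They ran from 1 to 2 at day 5 of the empty vector, and were 0 in each case at day 7 of TEL-AML1. The cause of these changes was not tested.

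The replicate block changed no call of a member in any of the 12 contrasts. The fit with a block within each condition was made only for the 4 comparisons between the vectors, and changed no member call there. The count between the vectors was 4 in untreated cells and 2 at day 5 with either.

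Counts over all genes moved too, and a changed member or list count under a setting is to be read beside these. Between the vectors they ran from 477 to 2374 untreated (1098 as reported), from 327 to 1838 at day 5 (903), from 371 to 2215 at day 7 (1392) and from 1993 to 3948 in the mean (2788). With the empty vector they ran from 202 to 2010 at day 5 (1926) and from 289 to 2799 at day 7 (1910). With TEL-AML1 they ran from 80 to 294 at day 5 (198) and from 200 to 1646 at day 7 (968). Day 7 against day 5 gave up to 71 and 17 genes (0 as reported), and the response differences from 1 to 16 (4) and from 0 to 75 (10).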
